A study of Mus musculus with 2 samples.

Results

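Eph receptors and ephrins were followed in jejunal crypt cells of mice, as 9 genes taken by symbol from the 31053 measured: the receptors Ephb2, Ephb3, Ephb4, Ephb6 and Epha2 and the ligands Efnb1, Efnb2, Efna1 and Efna4. They were named by symbol with no limit on a measured value, and with earlier results of these data known. Cells of the jejunum had been sorted for GFP in Lgr5-eGFP-IRES-CreER mice, in which the Lgr5 locus drives the reporter and an inducible Cre, so that the sort enriches crypt base stem cells. The animals of both groups carried this allele, were 10 to 12 weeks old and are labelled female. One group received an Fc control and the other an antagonist of FZD5 and FZD8, receptors for Wnt ligands. Zygosity, dose and length of treatment are not stated in the sources used here. The labels name 3 mice per condition but 1 library each, so the cells of a group could not be assigned to mice.

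Eph receptors are receptor tyrosine kinases that bind ephrins on the surface of a neighbouring cell. B-type ephrins span the membrane and A-type ephrins are held to it by a lipid anchor, and both partners of a contact can signal. In the intestine EphB receptors are textbook targets of Wnt signalling in the crypt, ephrin-B ligands are known from the villus side, and their opposition keeps cell populations apart along the crypt axis. EphB3 is known for keeping Paneth cells at the crypt base.

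The files gave 67411637 UMIs over 12672 barcodes for the control and 55810293 over 13085 for the antagonist. Barcodes with 500 or more detected genes and no more than 20% mitochondrial UMIs numbered 11263 and 11019, with medians of 4478 and 2732 UMIs. The epithelial marker Epcam was at 2704 and 2868 CPM, while Col1a1 of stroma was at 0 in both. A list of 9 immune markers reached 13.7 and 7.51 CPM, with none at 0. Lgr5 itself was at 66.2 CPM in control and 3.09 CPM in antagonist cells. The libraries differed in sex-linked transcripts: 4 Y-linked genes summed to 106 and 5.60 CPM, and Xist was at 1.33 and 512 CPM. The control values went against the shared female label. A difference that goes with sex, in a gene of any chromosome, cannot be told apart from the treatment here. In all, 145 barcodes occurred in both libraries, which involved 85 and 127 kept cells. Leaving these cells out moved the log2 ratio of no member other than the rare Ephb6 by more than 0.06.

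Levels are CPM, a gene's UMIs per 1000000 UMIs of the cells considered, from 3' counts, so they compare a gene between cells and not 1 gene with another. Intervals are exact 95% intervals and cover counting error only. Each group is 1 library, so nothing was replicated or tested, and every difference is between these libraries. A member counted as lower or higher at 1.5-fold or more with at least 20 UMIs over the cells compared.

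Cells were placed by marker transcripts that include no Eph or ephrin gene. The stem gate (Lgr5, Ascl2, Gkn3, Axin2, Rgmb and Tnfrsf19) held 3785 control cells and 162 antagonist cells. Gates for S phase held 1496 and 1368 cells, for G2/M 2363 and 3167, for immature enterocytes 66 and 228 and for mature enterocytes 164 and 344. Paneth, goblet, tuft and enteroendocrine gates held 191, 277, 227 and 65 control cells and 463, 353, 217 and 80 antagonist cells. A further 2614 and 4631 cells lay outside all gates. A cell that met several rules was placed by lineage before G2/M, by G2/M before S phase, and by S phase before stem. The stem rule itself was met by 6270 control and 423 antagonist cells, so the stem gate holds only part of these. A gate is a range of a score and not a cell type. Among all kept cells, whatever their gate, 575 control cells scored within 1.25-fold above the stem threshold and 446 within 1.25-fold below it. In the antagonist library these were 238 and 257 cells. Paneth transcripts were present in every gate, with a median of 62.6 UMIs per 10000 in the control stem gate and 25.9 in the antagonist stem gate. Their part in the values below was not tested.

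The promoter sequences of 4 members are shown because these genes moved furthest between the libraries among members with more than 100 UMIs. Each is the 250 bases before a RefSeq transcription start (GRCm38.p6), in the direction of transcription, with CTTTG or its reverse complement CAAAG in capitals, the core letters of the motif of TCF/LEF factors, which carry Wnt signals to DNA. They lie at chr16:21204545-21204794 (plus strand) for Ephb3, chr8:8661243-8661492 (minus strand) for Efnb2, chr3:89280952-89281201 (minus strand, the more upstream of the pair of starts listed) for Efna1 and chr3:89338029-89338278 (minus strand) for Efna4.
Ephb3: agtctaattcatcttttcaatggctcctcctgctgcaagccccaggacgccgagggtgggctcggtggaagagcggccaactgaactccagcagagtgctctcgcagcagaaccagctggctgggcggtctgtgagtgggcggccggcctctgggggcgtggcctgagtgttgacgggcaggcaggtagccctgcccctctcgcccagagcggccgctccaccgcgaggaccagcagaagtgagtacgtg
Efnb2: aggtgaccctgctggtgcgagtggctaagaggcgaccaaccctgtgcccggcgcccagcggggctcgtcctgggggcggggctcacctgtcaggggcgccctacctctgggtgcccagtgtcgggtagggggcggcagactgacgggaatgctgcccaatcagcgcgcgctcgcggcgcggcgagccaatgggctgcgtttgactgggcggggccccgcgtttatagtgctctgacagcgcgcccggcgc
Efna1: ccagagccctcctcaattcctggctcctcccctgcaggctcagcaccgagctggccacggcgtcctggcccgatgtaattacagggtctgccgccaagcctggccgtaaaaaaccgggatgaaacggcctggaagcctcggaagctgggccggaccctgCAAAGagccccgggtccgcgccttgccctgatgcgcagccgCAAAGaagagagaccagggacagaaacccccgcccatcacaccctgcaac
Efna4: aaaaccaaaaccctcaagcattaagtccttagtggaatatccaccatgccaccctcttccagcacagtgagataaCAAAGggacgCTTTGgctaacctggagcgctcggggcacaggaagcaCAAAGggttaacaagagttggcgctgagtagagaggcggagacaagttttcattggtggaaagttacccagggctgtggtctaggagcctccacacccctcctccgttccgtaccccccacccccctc
The Efna4 window held 3 matches, 128, 165 and 175 bases before the RefSeq start, and the Efna1 window held 2, at 50 and 91 bases. By the GENCODE coordinates given below, the Efna1 gene begins at 89281142, inside this window. Both Efna1 matches thus lie within the GENCODE gene and not before it. The Ephb3 window also runs past the GENCODE start of its gene, at 21204755. Ephb3 and Efnb2 held none, nor did Ephb2, Ephb4, Ephb6 and Efnb1, while Epha2 held 1 at 209 bases. Among 32851 RefSeq promoter windows of this length, 48.6% held the letters on either strand. A match describes the letters of this window only. All 9 members matched the RefSeq table.

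Among the receptors, Ephb3 differed most between the libraries. Ephb3 (chromosome 16, 21204755 to 21223305, plus strand, GENCODE vM21 on GRCm38) was at 14.4 CPM (13.5 to 15.3) in control cells and 4.23 CPM (3.70 to 4.82) in antagonist cells, from 953 and 230 UMIs. The antagonist-to-control ratio was 0.294 (0.254 to 0.340). Ephb2 (chromosome 4, 136647539 to 136835988, minus strand), the receptor used to grade crypt cells by position, was at 39.3 CPM (37.9 to 40.9) and 29.1 CPM (27.6 to 30.5), from 2605 and 1579 UMIs. Its ratio was 0.739 (0.693 to 0.787), short of 1.5-fold. Ephb4 (chromosome 5, 137350109 to 137378669, plus strand), best known from veins, followed Ephb2 closely, at 37.1 and 28.1 CPM with a ratio of 0.758 (0.710 to 0.808). Both were thus lower by much less than Ephb3.

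The remaining receptors were rare. Epha2 (chromosome 4, 141301240 to 141329384, plus strand), a receptor for A-type ephrins, was at 3.29 and 3.85 CPM, and its ratio of 1.17 (0.962 to 1.42) included equality. Ephb6 (chromosome 6, 41605482 to 41620509, plus strand), a member without kinase activity, had 10 UMIs in control and 20 in antagonist cells, 0.151 and 0.368 CPM. Its ratio of 2.44 (1.09 to 5.83) rests on those 30 UMIs, and it was below 20 UMIs in every gate.

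The ligands moved in both directions, with both B-type ligands higher and both A-type ligands lower. Efnb2 (chromosome 8, 8617434 to 8661242, minus strand), a B-type ligand, was at 6.09 CPM (5.51 to 6.71) in control cells and 13.7 CPM (12.8 to 14.8) in antagonist cells, and its ratio was 2.26 (2.0 to 2.56). Efnb1 (chromosome X, 99136130 to 99148991, plus strand) was at 31.8 CPM (30.4 to 33.2) and 42.9 CPM (41.2 to 44.7), a ratio of 1.35 (1.27 to 1.43). Efnb1 lies on the X chromosome, where the libraries differ in Xist. Over 406 X-linked genes the log2 ratio had a median of -0.15, as it did over 13316 autosomal genes. Efnb2 shares its strand with 3 overlapping gene models (E230020D15Rik, Gm45074 and Gm45073), so its count is uncertain to that extent.

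Efna4 (chromosome 3, 89333390 to 89338028, minus strand), an A-type ligand, was at 31.1 CPM (29.8 to 32.5) in control cells and 10.9 CPM (10.0 to 11.8) in antagonist cells, with a ratio of 0.350 (0.319 to 0.384). Efna1 (chromosome 3, 89271733 to 89281142, minus strand), a ligand of EphA2, was at 15.6 and 9.22 CPM, and its ratio was 0.592 (0.531 to 0.660). Efna4 thus had a ratio near that of Ephb3, with intervals that overlap. In all, 3 of 9 members (Ephb3, Efna1 and Efna4) were lower by 1.5-fold or more, against 19.3% of 13757 genes, and 2 (Efnb2 and Ephb6) were higher, against 6.5% of genes. The median log2 ratio of the 9 was -0.40, beside -0.15 over all genes.

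Ephb3 and Efna4 were lower in the antagonist library in each gate of the crypt. Over the stem, S phase, G2/M, immature and mature enterocyte gates and the cells outside the gates, 12 of 43 member and gate pairs with 20 UMIs were lower by 1.5-fold or more, against 15.6% of all gene and gate pairs. A further 7 pairs were higher, against 9.94%. Ephb3 had ratios of 0.395 (0.107 to 1.02) in the stem gate, 0.297 (0.172 to 0.484) in S phase, 0.257 (0.199 to 0.328) in G2/M and 0.340 (0.252 to 0.459) outside the gates. Efna4 had 0.240 (0.0878 to 0.524), 0.412 (0.316 to 0.530), 0.392 (0.336 to 0.458) and 0.365 (0.305 to 0.436) in the same order. Both were lower in each of these cell groups, although the Ephb3 interval of the stem gate, with 4 antagonist UMIs, reached equality.

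Ephb2 had a ratio of 0.705 (0.409 to 1.14) in the stem gate from 832 and 17 UMIs, 0.785 (0.658 to 0.933) in S phase and 0.679 (0.613 to 0.752) in G2/M. Efnb2 had its largest ratio along the axis in G2/M, at 3.05 CPM in control and 10.6 CPM in antagonist cells, a ratio of 3.49 (2.57 to 4.81). It was 1.5 (0.967 to 2.31) in S phase, 1.66 (1.28 to 2.17) outside the gates and 1.01 (0.616 to 1.67) in immature enterocytes. Efnb1 ranged from 0.875 (0.507 to 1.41) in the stem gate to 1.57 (1.09 to 2.30) in immature enterocytes. Efna1 had its lowest ratio in the stem gate, at 21.4 and 5.19 CPM, the latter from 3 UMIs, a ratio of 0.243 (0.0499 to 0.715). That place depended on the gate. With a stem gate of cells with an Lgr5 UMI, the log2 ratio of Efna1 was -0.45 in place of -1.82, weaker than the -0.60 of G2/M. The log2 ratio of Ephb3 was then -3.23 in place of -1.17. Weighting the gates alike in both libraries left the all-cell log2 ratio of Ephb3 at -1.56, Efna4 at -1.46 and Efnb2 at 0.96, and put Epha2 at 0.60.

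**Figure D1:**
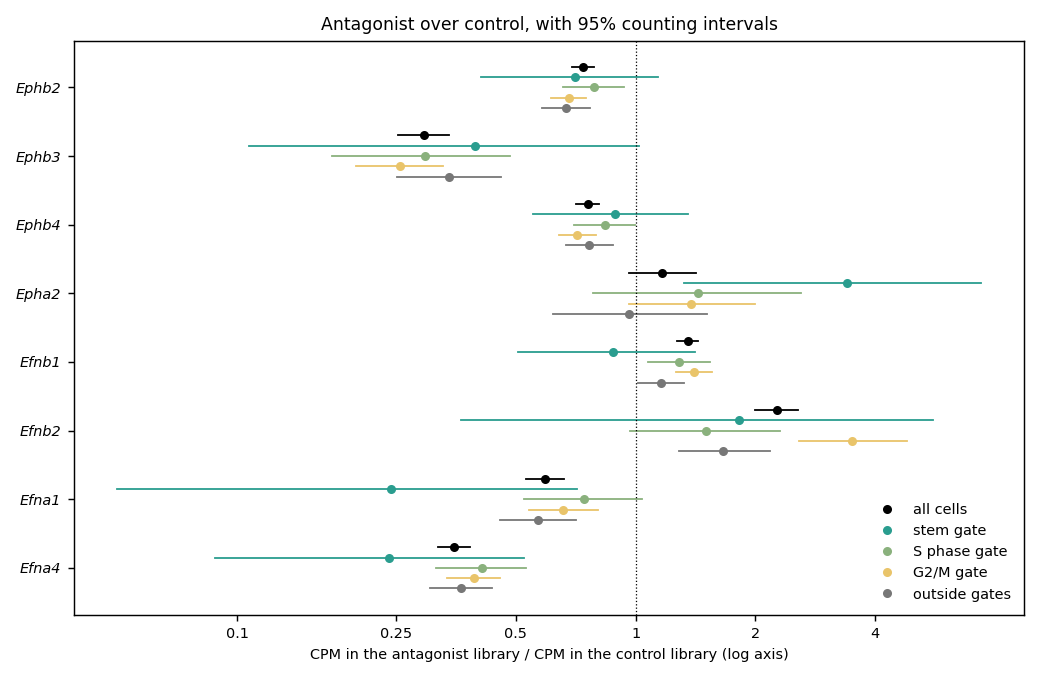
Ratio of CPM in the antagonist library to CPM in the control library on a log axis, for 8 genes in all cells, the stem, S phase and G2/M gates and the cells outside the gates; points are ratios and lines 95% counting intervals. Ephb3 and Efna4 sit at 0.294 and 0.350 in all cells and left of 1 in each group shown, Efnb2 at 2.26 and right of 1.

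Ephb2, Ephb3, Ephb4 and Efna4 were lower in mature enterocytes than in the stem gate, and Efnb2 and Epha2 ran the other way. In the control library Ephb2 went from 41.8 CPM (39.0 to 44.7) in the stem gate through 14.9 CPM in immature to 8.51 CPM (4.40 to 14.9) in mature enterocytes, 4.90-fold lower (2.79 to 9.53). Ephb3 went from 17.5 to 2.13 CPM, 8.23-fold (2.79 to 40.1), and Ephb4 from 42.9 to 7.81 CPM, 5.50-fold (3.06 to 11.1). Efna4, although a ligand, shared this course, from 43.3 to 5.68 CPM, 7.63-fold lower (3.86 to 17.7). Efnb2 went from 2.86 CPM (2.17 to 3.71) in the stem gate to 38.9 CPM (26.9 to 54.3) in immature and 30.5 CPM (22.1 to 41.1) in mature enterocytes, a ratio of 10.7 (7.01 to 16.1) for mature over stem. Epha2 went from 3.56 to 13.5 CPM, a ratio of 3.78 (2.15 to 6.35).

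Efnb1 did not share the course of Efnb2. It was at 33.6 CPM in the control stem gate, 54.9 CPM (40.4 to 72.7) in immature and 33.3 CPM in mature enterocytes, and the ratio of the last to the first was 0.992 (0.721 to 1.33). Efna1 was at 21.4 and 26.3 CPM in the stem and mature gates, a ratio of 1.23 (0.853 to 1.72) that included equality. Of 8 members with 20 UMIs, 4 were lower in mature enterocytes, against 53.8% of genes, and 2 were higher, against 17.9%. These shares of the members were not far from those of all genes.

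In the antagonist library the same comparison starts from 162 stem gate cells with 577657 UMIs. Ephb4 went from 38.1 to 5.94 CPM, 6.42-fold lower (2.84 to 15.8), and Ephb2 from 29.4 to 11.2 CPM, 2.62-fold lower (1.26 to 5.47). Efnb2 was at 5.19 CPM in the stem gate, from 3 UMIs, and 54.8 CPM (43.6 to 67.9) in mature enterocytes, a ratio of 10.5 (3.48 to 52.2). Efna1 was at 5.19 CPM, again from 3 UMIs, and 23.1 CPM, a ratio of 4.45 (1.40 to 22.6). Only 5 members had 20 UMIs in this comparison, of which 2 were lower, against 41.1% of genes, and 2 higher, against 23.5%. Between the libraries, Efna1 in mature enterocytes, at 26.3 and 23.1 CPM, had a ratio of 0.879 (0.538 to 1.44), an interval that overlaps that of the stem gate, and the difference between these gates was not tested.

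**Figure D2:**
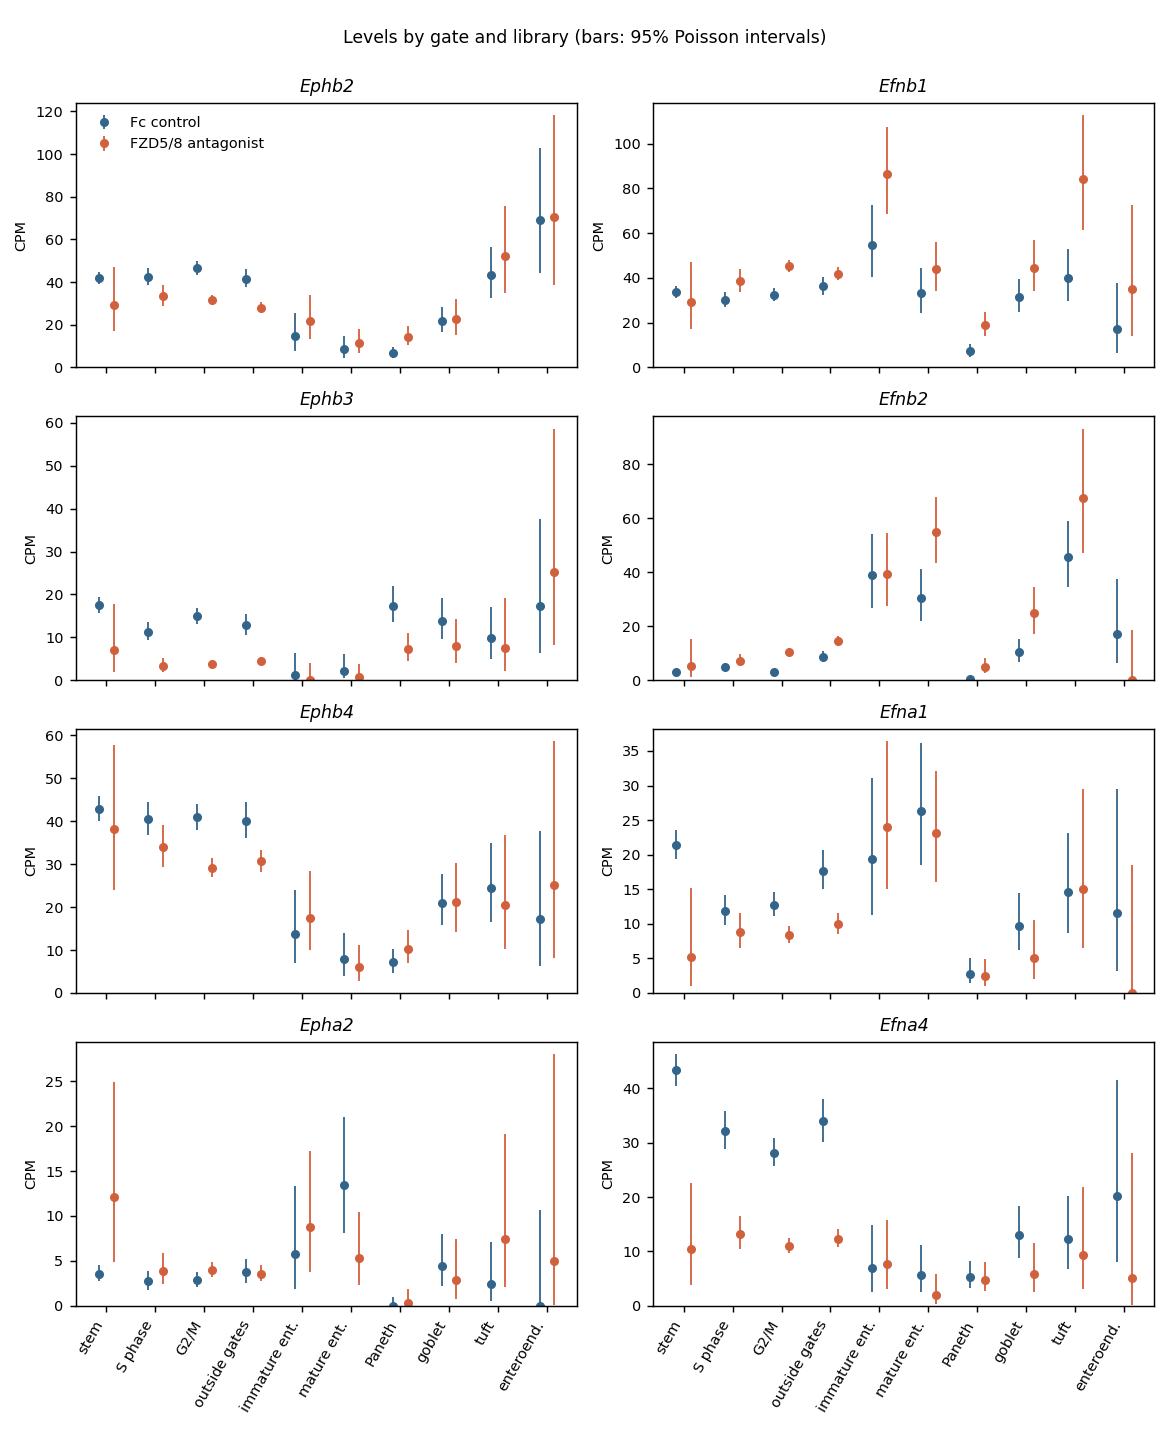
CPM of 8 genes (vertical axes, each from 0) in 10 groups of cells (horizontal axis) of the control and the antagonist library, with bars for 95% Poisson intervals. Efnb2 goes from 2.86 CPM in control stem gate cells to 30.5 CPM in mature enterocytes, Ephb2 from 41.8 to 8.51 CPM, and Ephb3 is at 17.4 CPM in the control Paneth gate.

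Among cycling control cells, stem markers marked a difference in Ephb3 and Efnb2 more than in Ephb2. Cells in S phase or G2/M were divided by whether they also met the stem marker threshold, which gave 2313 control cells with and 1546 without stem markers, of similar depth (medians of 5960 and 5344 UMIs). Ephb3 was at 18.5 CPM (16.5 to 20.7) in those with and 6.06 CPM (4.69 to 7.71) in those without, a ratio of 3.05 (2.33 to 4.05). Efnb2 was at 1.91 CPM (1.30 to 2.71) and 6.43 CPM (5.01 to 8.12), a ratio of 0.298 (0.188 to 0.460). Ephb2 had 49.3 and 38.7 CPM, a ratio of 1.27 (1.13 to 1.44), and Ephb4 had a similar ratio of 1.23 (1.08 to 1.39). Efna4 had a ratio of 1.64 (1.41 to 1.92) and Efna1 of 1.52 (1.20 to 1.94), while Efnb1 was at 30.6 and 32.9 CPM with an interval that included equality.

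In cycling cells without stem markers, of which the antagonist library had 4297, Ephb3 was at 3.51 CPM (2.84 to 4.28) and Efna4 at 11.2 CPM (10.0 to 12.6), against 6.06 and 21.5 CPM in their control counterparts. Efnb2 was at 10.0 CPM (8.90 to 11.3) there, against 6.43 CPM. The differences in these 3 genes were thus also present between cycling cells below the stem marker threshold, which can still hold stem marker UMIs. The threshold was met by 2313 control but only 238 antagonist cycling cells. The S phase and G2/M ratios above therefore compare unlike mixtures of cells, and the part of this in those ratios was not tested. In the 238 antagonist cycling cells with stem markers Ephb3 was at 9.41 CPM (4.51 to 17.3), 2.69 times (1.25 to 5.15) the level of those without.

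Brush border transcripts divided the cells in another way. In the control library their median per 10000 UMIs was 4.46 in the stem gate, 4.42 in S phase, 4.29 in G2/M and 3.77 outside the gates. It was 34.9 in immature and 104 in mature enterocytes. The lower bins therefore do not order the crypt gates and are not successive places along the crypt. Each cell was thinned to 3000 UMIs, which kept 7536 control and 5036 antagonist cells. Those of the stem, S phase, G2/M and enterocyte gates and outside the gates were binned by UMIs of 13 brush border genes. Cells of all other gates, among them Paneth, goblet, tuft and enteroendocrine, were left out of the bins. In the control library Ephb2 was at 35.9 CPM (31.1 to 41.3) with 0 such UMIs, 43.1 with 1, 46.4 with 2 and 62.0 CPM (53.5 to 71.4) with 3 to 4, then 56.4 CPM (38.8 to 79.2) with 5 to 9 and 15.5 CPM (4.22 to 39.7) with 10 to 29. Ephb2 was therefore not highest in the cells with fewest brush border transcripts. Ephb4 had a similar course, with 37.9 CPM (33.0 to 43.4) at 0, 52.8 CPM (45.0 to 61.6) at 3 to 4 and 7.75 CPM at 10 to 29. Ephb3 stayed between 13.6 and 15.9 CPM up to 3 to 4 UMIs.

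In the antagonist library Ephb2 had no such peak: it was between 29.2 and 30.7 CPM from 0 to 5 to 9 brush border UMIs and at 7.98 CPM (2.18 to 20.4) at 10 to 29. At 3 to 4 UMIs its interval of 24.1 to 37.6 CPM lay below the control interval. Efnb2 was higher in later bins of both libraries, from 2.71 CPM at 0 to 12.0 CPM at 5 to 9 and 54.3 CPM (29.7 to 91.0) at 10 to 29 in the control library, and from 5.69 to 22.8 and 55.9 CPM (37.1 to 80.8) in the antagonist library. The bins of 10 or more UMIs held 86 and 81 control cells and 167 and 85 antagonist cells. Efnb1 moved less, from 26.9 to 62.0 CPM and from 37.5 to 47.9 CPM over the same bins. Within each bin up to 9 UMIs, Efna4 was lower in the antagonist library, for example 11.5 against 38.2 CPM at 1.

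**Figure D3:**
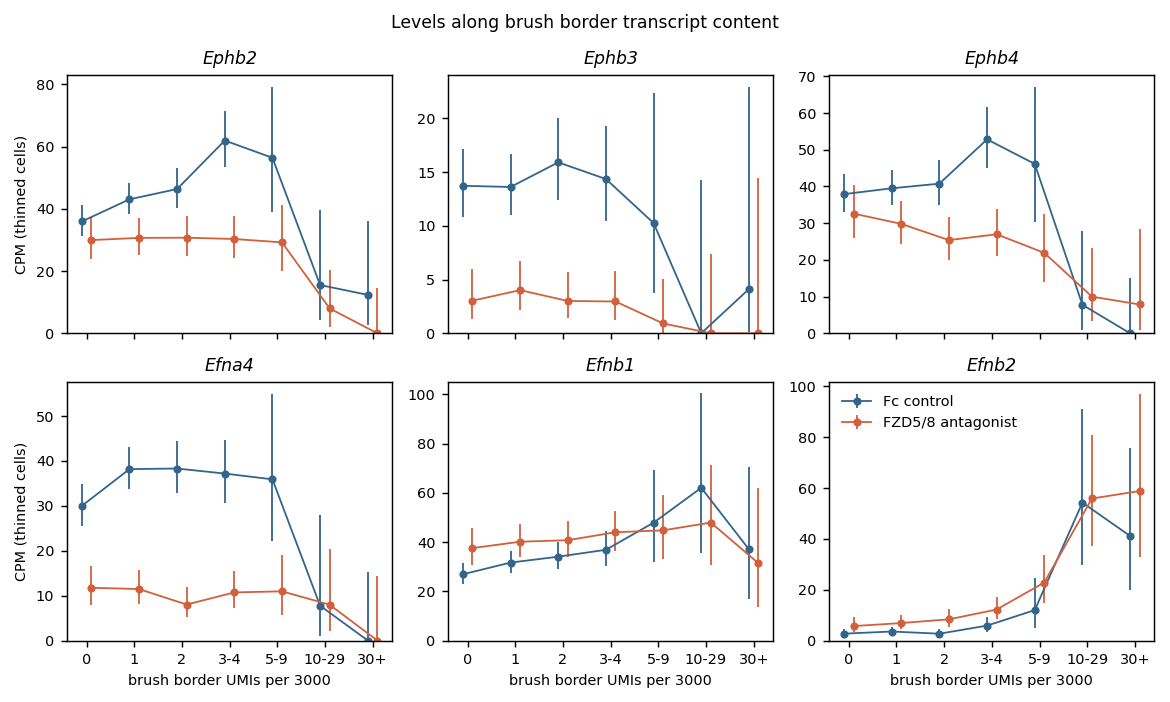
CPM of 6 genes in cells thinned to 3000 UMIs (vertical axes, each from 0) by the number of brush border UMIs per cell (horizontal axis) in both libraries, with bars for 95% Poisson intervals. Cells of the Paneth, goblet, tuft and enteroendocrine gates are left out. In the control library Ephb2 peaks at 62.0 CPM with 3 to 4 brush border UMIs, and Efnb2 reaches 54.3 and 55.9 CPM with 10 to 29.

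The number of EphB receptor UMIs per ephrin-B UMI was higher in crypt gates than in enterocyte gates. The sum of Ephb2, Ephb3 and Ephb4 divided by that of Efnb1 and Efnb2 compares one cell group with another and is not a ratio of proteins. In the control library it was 2.80 in the stem gate, 2.70 in S phase, 2.89 in G2/M, 2.11 outside the gates, 0.317 in immature and 0.289 in mature enterocytes. In the antagonist library it was 2.15 (1.24 to 3.86), 1.54 (1.31 to 1.81), 1.16 (1.07 to 1.25), 1.12 (1.03 to 1.22), 0.313 (0.209 to 0.459) and 0.180 (0.115 to 0.272) in the same order. The antagonist library was lower in cycling cells and in cells outside the gates, and about alike in immature enterocytes. Values below those of the crypt gates were not particular to enterocytes. In control and antagonist cells the tuft gate had 0.905 and 0.531 and the goblet gate 1.35 and 0.747. The Paneth gate had 4.21 and 1.35, and the enteroendocrine gate 3 and 3.43.

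The order of the crypt gates also differed. In the control library S phase and G2/M had about the value of the stem gate. In the antagonist library G2/M cells, at 1.16, lay below S phase cells, at 1.54, with intervals that did not overlap. A B receptor UMI and a B ligand UMI were found in the same thinned cell in 2.80% (2.44 to 3.20) of control cells and 2.20% (1.82 to 2.65) of antagonist cells, where the product of the separate shares was 2.57% and 2.20%. Receptor and ligand transcripts therefore occurred together about as often as their separate shares give.

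**Figure D4:**
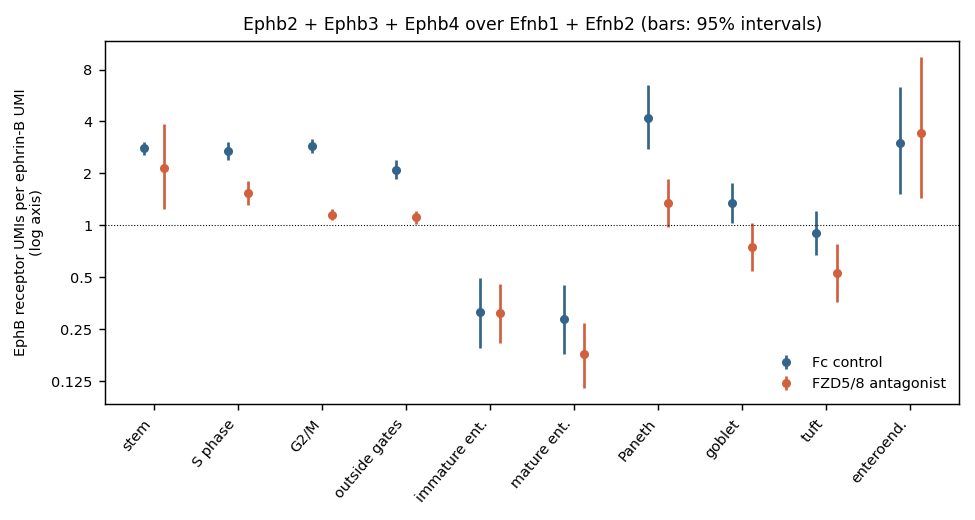
Summed UMIs of Ephb2, Ephb3 and Ephb4 per summed UMI of Efnb1 and Efnb2 (log axis) in 10 groups of cells of both libraries, with bars for 95% intervals. Control stem, S phase and G2/M gates lie between 2.70 and 2.89, antagonist G2/M cells at 1.16, and enterocyte gates of both libraries between 0.180 and 0.317.

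Secretory gates carried their own combinations. In the control Paneth gate Ephb3 was at 17.4 CPM (13.5 to 22.0), level with the 17.5 CPM of the stem gate, while Ephb2 was at 6.64 CPM (4.34 to 9.74), Ephb4 at 7.16 CPM and Efna4 at 5.37 CPM. Of its 191 cells, with a median of 2024 UMIs, 91 had 3000 or more, and these gave most of the gate's 3913071 UMIs. Paneth cells are filled with few very abundant transcripts: the 100 most abundant genes took 73.8% of UMIs in this gate and 36.5% in the stem gate, and 95.7% of all genes were lower than in the stem gate by 1.5-fold or more. Against a total without those 100 genes, a scaling chosen after seeing the data, Ephb3 was 2.41 times (1.83 to 3.13) its stem gate level in the control Paneth gate, and Ephb2 0.386 times (0.251 to 0.570). Ephb3 and Ephb2 thus lay on opposite sides of the stem gate level on that scale. Epha2 had 0 UMIs and Efnb2 1 UMI in this gate.

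Between libraries, Ephb3 in the Paneth gate had 17.4 and 7.21 CPM, a ratio of 0.415 (0.242 to 0.686). Median depth in this gate was 2024 and 2965 UMIs. Its summed UMIs went the other way, with 3913071 over 191 control cells and 2911274 over 463 antagonist cells. Summed UMIs weight deep cells most, so the medians alone do not describe depth here. The part of depth in the ratio was not tested. In the same gate 82.1% of all genes were higher in the antagonist library by 1.5-fold or more, and the median level of G2/M marker UMIs was 1.71 per 10000 in control and 13.0 in antagonist cells. Ephb2 there had a ratio of 2.17 (1.30 to 3.69) and Efnb1 of 2.64 (1.65 to 4.32). On the total without the 100 genes these were 1.49 (0.891 to 2.53) and 1.81 (1.13 to 2.96), where 58.9% of genes were still higher, and Ephb3 was at 0.284 (0.166 to 0.470). Ephb3 was thus lower in a gate where most genes were higher.

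Tuft gate cells had Efnb2 at 45.6 CPM (34.4 to 59.2) in the control library, the highest value of the 10 groups with an interval that overlapped that of immature enterocytes, beside 67.4 CPM (47.2 to 93.3) in the antagonist library. Tuft gate Efnb1 had 39.9 and 84.2 CPM, a ratio of 2.11 (1.38 to 3.23). Enteroendocrine gate cells had Ephb2 at 69.2 CPM (44.3 to 103) in the control and 70.4 CPM (38.5 to 118) in the antagonist library, from 24 and 14 UMIs, the former 1.66 times (1.06 to 2.48) the stem gate level. Goblet gate Ephb2, 21.8 and 22.5 CPM, and Ephb4, 21.0 and 21.1 CPM, had ratios of 1.03 (0.641 to 1.63) and 1.0 (0.614 to 1.61). Efnb2 in goblet cells had 10.5 and 24.7 CPM, a ratio of 2.35 (1.37 to 4.08).

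Ranked over the 10 control groups, Ephb2 ran from enteroendocrine (69.2 CPM) over G2/M (46.7), tuft (43.1), S phase (42.5), stem (41.8) and cells outside the gates (41.6) to goblet (21.8), immature enterocyte (14.9), mature enterocyte (8.51) and Paneth cells (6.64). Neighbours in this order had overlapping intervals except between the cells outside the gates and goblet cells. Efnb2 ran from tuft over immature (38.9 CPM) and mature enterocyte, enteroendocrine (17.3), goblet and cells outside the gates (8.70) to S phase (4.83), G2/M (3.05), stem and Paneth cells (0.256). Efna4 ran from stem (43.3 CPM) over cells outside the gates (33.9), S phase (32.1), G2/M (28.2), enteroendocrine (20.2), goblet (12.9) and tuft (12.2) to immature enterocyte (6.86), mature enterocyte and Paneth cells. The step of Efna4 from the stem gate to its next neighbour exceeded both intervals. Ephb3, highest in the stem gate, had overlapping intervals between all neighbours. Its order ended with tuft (9.76 CPM, 5.04 to 17.1), mature enterocyte (2.13 CPM, 0.439 to 6.22) and immature enterocyte (1.14 CPM) gates.

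Shares of cells with a UMI were compared at equal depth. Thinning to 3000 UMIs dropped 3727 shallower control cells and 5983 shallower antagonist cells. Ephb2 was then found in 12.0% (11.3 to 12.8) and 7.76% (7.04 to 8.54) of cells, and unthinned in 19.2% and 11.5%. Ephb3 was found in 3.94% and 0.953% thinned and in 7.61% and 1.93% unthinned. Efna4 was found in 9.32% and 2.90% thinned, 15.5% and 4.77% unthinned. These were lower in the antagonist library on both counts. Efnb2 was found in 1.61% and 3.59% thinned, 3.03% and 5.64% unthinned. Efnb1 was found in 9.24% (8.59 to 9.91) and 11.4% (10.5 to 12.3) of thinned cells but in 15.8% and 15.7% of unthinned cells, while its CPM without thinning was 31.8 and 42.9. Thinning also left out the shallower cells, and the part of each in the shares was not tested.

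Mature enterocytes, low in the receptors by CPM, were taken as a low reference. Whether their receptor UMIs are free RNA of the droplets or their own transcripts was not tested. Barcodes left out by the cell filter had higher levels, in the antagonist library 12.8 CPM of Ephb3 and 51.9 CPM of Ephb2. Ephb2 was found in 3.52% (1.15 to 8.03) of thinned control and 2.14% (0.586 to 5.39) of thinned antagonist cells of this gate, whose median depths were 6928.5 and 3404.5 UMIs. Ephb3 was found in 0.704% and in 0 of 187 cells, which allows up to 1.60%. The all-cell share of Ephb3 in the antagonist library, 0.953% (0.704 to 1.26), was within that allowance, so the thinned shares did not set it apart from this reference. By CPM without thinning it was at 4.23 (3.70 to 4.82) in all antagonist cells and 0.660 (0.0167 to 3.68) in mature enterocytes, with intervals that did not overlap. The all-cell share of Ephb2 in the antagonist library lay above the interval of the mature enterocytes.

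Of the 13 other Eph and ephrin genes measured, 4 had 100 or more UMIs over both libraries. Epha1, a receptor for A-type ephrins, had 6.54 and 8.54 CPM, a ratio of 1.31 (1.14 to 1.49), and reached 52.5 CPM (41.2 to 65.9) in control and 39.6 CPM (30.2 to 50.9) in antagonist mature enterocytes, against 6.12 CPM in the control stem gate. In the control library Epha1 and Epha2 were thus both higher in mature enterocytes, where the EphB receptors were lower. Epha4, which binds ephrins of both types, had 3.40 and 1.36 CPM, a ratio of 0.401 (0.304 to 0.523), with 15.5 and 11.2 CPM in the tuft gate and 0 UMIs in control mature enterocytes. The ligands Efna3 (4.52 and 3.94 CPM) and Efnb3 (1.13 and 0.994 CPM) had intervals of the ratio that included equality.

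Among partners of Eph signalling, 6 of 42 listed were lower by 1.5-fold or more in all antagonist cells, against 19.3% of all genes, and 1 was higher, against 6.5%. Their median log2 ratio was -0.11 beside -0.15 for all genes. In the stem gate 11 of 41 were lower, against 21.2% of genes, and 2 were higher, against 14.1%. Among partners with 20 CPM or more, the lowest ratios belonged to Tiam1, an exchange factor for Rac (20.7 and 12.6 CPM, ratio 0.608), and Pik3r1, a regulatory subunit of PI3 kinase (161 and 128 CPM, ratio 0.797). The highest belonged to Cdc42, a small GTPase of the cytoskeleton (219 and 295.5 CPM), and Anks4b (34.5 and 46.5 CPM, ratio 1.35). The adhesion receptor Cdh1 was at 223 CPM in each library. Kalrn, an exchange factor named after its values were seen, was the 1 higher partner (4.21 and 6.79 CPM), and Vav3, chosen likewise, was at 10.8 and 1.49 CPM. A reference list of crypt Wnt targets, which holds Ephb2 and Ephb3, had 14 of 16 genes lower in all cells, against 19.3% of all genes, and none higher, against 6.5%, with a median log2 ratio of -1.85. Ephb2 (ratio 0.739) and Ccnd1 (0.876) were the genes that fell short of 1.5-fold. The list shares Lgr5, Ascl2, Axin2 and Tnfrsf19 with the markers of the stem gate, which held far fewer antagonist cells.

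Genes with courses most like those of the members were sought over 20 profiles, 10 cell groups in each library, among 8212 genes, by Pearson correlation of log2(CPM + 1). The profiles of a library share that library and its depth, so the values are a description. Genes most like Efna4 included Cdca7 (0.94), Nrtn (0.94), Rnf43 (0.93) and Clca3b (0.93). Ephb2 was most like Ssbp3, Casd1, Smarca2, Srpk2 and Clk2 (each 0.96), and Ephb3 most like Zfp503 (0.90), Cib2 (0.89), Trp53inp1 (0.88), Fbxo21 (0.86) and Casc4 (0.85). Ephb4 had Ifitm2 (0.98) first, Efnb1 had Ctnnd1 (0.95), Epha2 had Rdh10 (0.87) and Efna1 had Igtp (0.91). Efnb2 was most like Oasl1 (0.93), Trim40 (0.93), Oas3 (0.92), Slfn5 (0.92) and Itgb4 (0.92), of which Oasl1 and Oas3 are oligoadenylate synthetase family genes. Among the members themselves, Ephb4 and Efna4 were most alike (0.80), then Ephb2 and Ephb4 (0.77), and Ephb3 and Efnb2 ran most oppositely (-0.66).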

How the data were processed

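GFP-sorted jejunal cells were captured with 10x Genomics 3' chemistry (V3.1 NextGEM), per the labels. The authors deposited raw UMI counts of each gene in each barcode, and Cell Ranger and GRCm38 (mm10) stand in the submitters' processing notes. The file headers give software version 3.1.0. The annotation release and the choice of barcodes are not given in these sources. Without a stated strand setting, Ephb4 and Efna4, which overlap the antisense genes Zan and 4731419I09Rik, are uncertain to that extent.

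Barcodes with 500 or more genes and up to 20% mitochondrial UMIs were kept. No doublets were removed; 1.33% and 1.29% of cells met more than 1 lineage gate. Gates used marker UMIs per 10000 with thresholds set after seeing the markers' distributions. UMIs were summed per gate and library and divided by the total. Levels have exact Poisson, ratios exact conditional binomial and shares Clopper-Pearson intervals; log2 ratios had 0.5 UMI added to each sum. A zero was given a limit of 3 counts. No test was made, since each group has 1 library. The calculation was checked on simulated data. Members and lists were chosen with earlier results of these data known. Named genes were the 9 members, other Eph genes with 100 or more UMIs, the 2 lowest and 2 highest partners with 20 CPM or more, and the 5 genes most like each member, without unnamed gene models. Of the genes most like a member, all 5 are given for Ephb2, Ephb3 and Efnb2, 4 for Efna4 (1 is not reported here), and the first alone for Ephb4, Epha2, Efnb1 and Efna1. Coordinates are from GENCODE vM21 (30934 of 31053 identifiers matched) and promoters from RefSeq. Python 3.11.15, numpy 2.4.6, scipy 1.17.1 and pandas 2.3.3 were used. Alternatives were other cell filters, scalings, thinning, gate thresholds, a stem gate from Lgr5 alone and other count limits. Others left out shared barcodes or cells of more than 1 lineage, or, for all cells, weighted the gates alike in both libraries.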

Additional observations from a re-analysis of the deposited data

Results flagged for a closer look

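The ratio of Ephb2 between the libraries went in opposite directions in different gates, with intervals that exclude equality on both sides. It was 2.17 in the Paneth gate, and 0.785 in the S phase gate, 0.679 in the G2/M gate and 0.670 in cells outside the gates. The difference between the gates was not tested. In the Paneth gate 82.1% of all genes were higher in the antagonist library, and on a total without the 100 most abundant genes the ratio of Ephb2 was 1.49 (0.891 to 2.53).

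Epha2 likewise was higher in the antagonist library in the stem gate, with a ratio of 3.40, and lower in the mature enterocyte gate, with a ratio of 0.391. These rest on 71 and 7 UMIs in the stem gate and on 19 and 8 UMIs in the mature enterocyte gate, and the difference was not tested. With a stem gate of cells with an Lgr5 UMI, the log2 ratio in the stem gate was -0.52.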

How the results depend on the processing

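No paired analysis was possible because each group has 1 library, and for the same reason no replicate could be left out. In all cells, Ephb2, Ephb3, Ephb4, Efna1 and Efna4 were lower and Efnb1 and Efnb2 higher under each of 13 alternatives. Their log2 ratios ran from -0.62 to -0.32 for Ephb2, -2.06 to -1.56 for Ephb3, -0.57 to -0.29 for Ephb4, -0.95 to -0.64 for Efna1, -1.74 to -1.40 for Efna4, 0.32 to 0.55 for Efnb1 and 0.96 to 1.29 for Efnb2. Median-of-ratios scaling raised the median of all genes by 0.11. The number of members higher in all cells was 1 in thinned cells and 1 with a limit of 50 UMIs, against 2. With the gates weighted alike in both libraries it was 3, and the log2 ratio of Epha2 was then 0.60. Within gates the number higher was 4 in thinned cells, 12 with no limit on UMIs and 3 at 2-fold, against 7. From the stem gate to mature enterocytes in the antagonist library, the number lower was 0 in thinned cells, 0 with a limit of 50 UMIs and 6 with no limit, against 2. The number higher was 1 with the Lgr5 stem gate and 1 with a limit of 50 UMIs, against 2. The sign changed for 3 values that had excluded equality: Efnb1 in the immature enterocyte gate (log2 ratio -0.35 in thinned cells), Epha2 in the stem gate (-0.52 with the Lgr5 gate) and the difference in the share of cells with an Efnb1 UMI (-0.14 percentage points unthinned, against 2.12). The cause was not tested. Of 807 values of single members under an alternative, 758 stayed within their counting interval. Depth limits the antagonist stem gate, where 162 cells gave Ephb3 4 UMIs and Efnb2 and Efna1 3 each, and the antagonist enteroendocrine gate, where 80 cells gave Efnb2 and Efna1 0 UMIs, which allows up to 15.1 CPM.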

Other observations

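Barcodes that the cell filter left out, 1409 in the control library with 1205395 UMIs and 2066 in the antagonist library with 1482285, also held members. Ephb3 was at 16.6 CPM (10.1 to 25.6) in left-out control barcodes and 12.8 CPM (7.72 to 20.02) in left-out antagonist barcodes, against 14.4 and 4.23 CPM in kept cells. Ephb2 was at 46.5 CPM (35.1 to 60.3) and 51.9 CPM (41.0 to 64.9), against 39.3 and 29.1 CPM in kept cells. In the antagonist library both receptors thus had higher levels in the barcodes left out than in the cells kept, with intervals that did not overlap. This was not particular to receptors. The ligand Efna1 was at 16.9 CPM (10.9 to 24.9) in left-out and 9.22 CPM (8.43 to 10.1) in kept antagonist barcodes. In the control library it was at 24.9 CPM (16.8 to 35.5) and 15.6 CPM (14.6 to 16.6). Efna4 was at 24.9 CPM (16.8 to 35.5) and 9.44 CPM (5.16 to 15.8), close to its levels in kept cells.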
